A study of Rattus norvegicus with 3 samples.

Results

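T cell nuclei of the rat heart were examined in 1 single-nucleus RNA-seq library each of wild-type (WT), BMD and DMD animals. They were selected by measured UMIs, the unique molecular identifiers that count transcripts. A nucleus was a member when Cd3e, Cd3g, Themis and Camk4 together had at least 3 UMIs and more than the natural killer (NK) genes Klrd1, Tbx21, Nkg7, Ly49s6 and Clnk. Members also had less than 0.4% of their UMIs in the cardiomyocyte genes Actn2, Rbm20, Cmya5 and Mlip. At most 1 UMI was allowed in the fibroblast genes Dcn, Pdgfra and Bicc1, at most 1 in the endothelial genes Flt1, Ptprb and Cyyr1, and at most 1 in the macrophage genes Cd163 and Mrc1. This gave 218 members of 24664 nuclei, or 0.884%.

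Nuclei came from the heart apex, which holds parts of both ventricles and the septum, of rats aged 12 months, and were stained with DAPI and sorted without a T cell marker. WT animals were wild-type littermates, BMD rats carried an in-frame deletion of exons 45 to 47 of Dmd, the dystrophin gene, made by genome editing in Sprague Dawley embryos, and DMD rats carried a deletion of exon 52 of Dmd. Both deletions were inherited and not limited to muscle. The sex and number of animals behind each library are not given in the sources used here. With 1 library per genotype, genotype and library cannot be told apart, no test between genotypes was possible, and every interval below is a 95% interval that covers counting error only.

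T lymphocytes recognise peptide antigens through the T cell receptor, whose CD3 chains pass the signal on to kinases and adaptors such as SKAP1. Naive and central memory T cells, which circulate through lymphoid organs, express the transcription factors TCF7 and LEF1 and the interleukin-7 receptor. Effector T cells, in contrast, express cytotoxic proteins and chemokines such as CCL5, and infiltrating T cells are known in dystrophic muscle. The nucleus holds little of the cytoplasmic mRNA, so genes with long introns tend to be well represented in such data.

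Members were shallow. In WT, 69 members held a median of 752 UMIs (523 to 2220), in BMD 78 held 935 (530 to 2351), and in DMD 71 held 884 (550 to 3638). Summed over members, the libraries provided 59551, 77017 and 68095 UMIs. A level below is the UMIs of a gene of a library's members scaled to 1000000 UMIs (CPM). Where 3 values stand together without names, they are those of WT, BMD and DMD, always in that order. No member barcode was shared between libraries, and 1 member had the barcode of a nucleus in another library. The median share of mitochondrial UMIs was 3.14%, 2.0% and 1.40%, and 25, 22 and 17 members were over 5%. From 6 heart muscle genes that the rule did not use, RNA from outside the nucleus was estimated at 7.33%, 11.6% and 16.0% of member UMIs. The mitochondrial share was thus highest and the outside RNA lowest in WT, and their part in the differences described below was not tested.

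The rule was met narrowly by many nuclei. The 4 genes summed to a median of 5 UMIs, reached 17 at most, and stood at exactly 3 in 62 members (28.4%). A UMI of Cd3e or Cd3g, which encode chains of the CD3 complex, was present in 116 members, that is in 40, 44 and 32 by library. A further 67 had Themis, a thymocyte selection adaptor of receptor signalling, without CD3. The remaining 35 rested on Camk4, a calcium-dependent kinase, alone. In these the pooled level of Skap1 was 3769 CPM against 4481 CPM in the other members, while that of Lef1 was 606 against 1469 CPM. Nuclei just outside the threshold, with a sum of 2 and all other limits met, numbered 17, 24 and 15. Their Skap1 level was 3521, 3000 and 2692 CPM, while nuclei just inside, with a sum of 3, had 3930, 2880 and 5005 CPM.

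The label was checked against genes outside the rule. Skap1, an adaptor that couples the receptor to integrins, stood at 3644, 4557 and 4817 CPM in members, against 59.3, 48.7 and 60.4 CPM in all other nuclei. Lef1 stood at 1327, 1117 and 1615 CPM in members against 5.50, 7.86 and 12.6 CPM outside them. Bcl11b, a factor required for T cell commitment, stood at 1125, 935 and 940 CPM against 10.8, 12.2 and 12.0 CPM. Cd247, the CD3 zeta chain, stood at 1175, 1000 and 999 CPM. These genes followed the same cells as the rule and are given as a description. Among the 20 leading genes by the lowest ratio to all other nuclei over the libraries were also Scml4, Trat1, Prkcq, Ikzf1, Cd226, Il7r, Traf3ip3, Grap, Arhgap15, Rhoh, Itga4, Cd6, Ptprc and Bicdl1. Trat1 and Cd6 are T cell surface proteins, Prkcq is the protein kinase C of receptor signalling, and Ptprc is CD45. One leading gene, AABR07017902.1, has no other symbol in the files and stood at 1763, 2272 and 1748 CPM in members and at 2060, 1410 and 1617 CPM in NK-like nuclei.

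**Figure D1:**
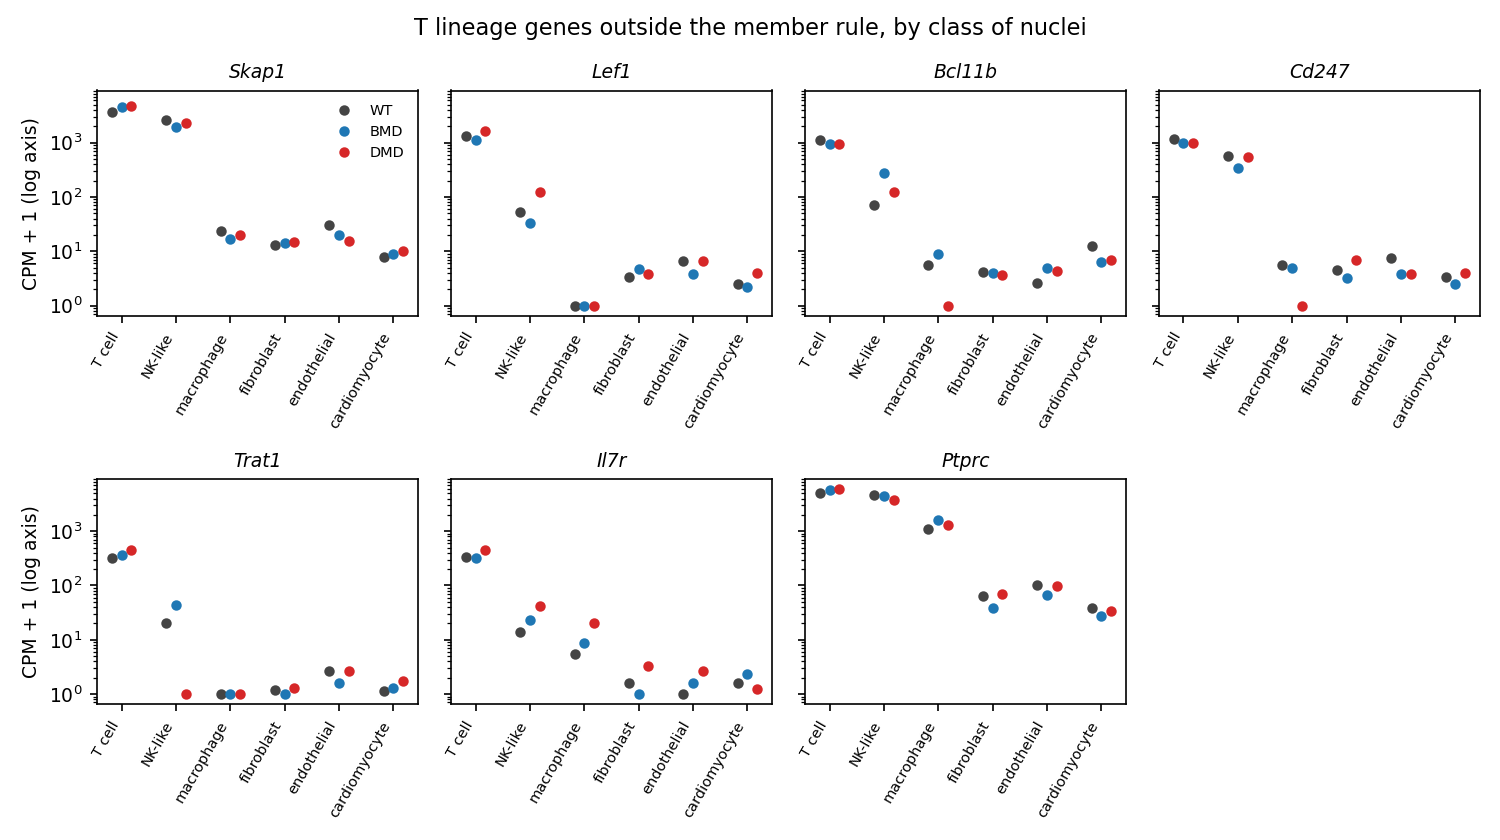
Level of 7 T lineage or leukocyte genes that the member rule did not use, as CPM plus 1 on a log axis, in classes of nuclei set by summed marker genes, with 1 point per library (WT grey, BMD blue, DMD red). Lef1, Trat1 and Il7r were highest in the T cell nuclei of every library, while Skap1, Cd247 and Ptprc were also abundant in NK-like nuclei (Skap1 at 2587, 1952 and 2266 CPM).

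Markers of other cell types were counted in the members. The rule itself limits Cd163 and Mrc1 of the macrophage genes, most of the NK genes and 4 of the cardiomyocyte genes, so that low counts of these are partly set by it. Of the 7 B cell genes, 2, 0 and 1 UMIs were found, with Cd79a, Cd79b, Ms4a1 and Pax5 at 0 in every library, and the 4 mast cell genes were at 0 in all. The 6 macrophage genes gave 3, 5 and 6 UMIs, with Cd68 at 0. The 8 NK genes in the files gave 50, 46 and 32 UMIs, or 840, 597 and 470 CPM, with Klrd1 most abundant in WT and DMD, Tbx21 in BMD, and Gzmb at 0 in all. The neutrophil or monocyte genes gave 5, 35 and 34 UMIs. Their most abundant gene in the mutants was S100a9, whose 17 UMIs in BMD lay in 2 nuclei and whose 14 in DMD lay in 7. The pericyte genes Rgs5, Abcc9 and Pdgfrb, which the rule did not limit, gave 27, 24 and 8 UMIs in 5, 7 and 4 nuclei. Cardiomyocyte genes, led by Ryr2, gave 79 UMIs (1327 CPM), 136 (1766 CPM) and 90 (1322 CPM). The part of these other markers in the results was not tested.

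T cell nuclei made up 0.692% of nuclei in WT (69 of 9964, 0.539 to 0.876%), 1.15% for BMD (78 of 6810, 0.906 to 1.43%) and 0.900% for DMD (71 of 7890, 0.703 to 1.13%). The share was thus highest in BMD, 0.453 percentage points above WT with an interval of 0.162 to 0.770. The DMD share was 0.207 points above WT, and the interval of -0.053 to 0.482 included no difference. Under all 12 other settings tried, both differences stayed above 0, and the interval excluded 0 in 12 of 12 for BMD and in 2 of 12 for DMD. The largest DMD difference came with the setting that dropped the limits on fibroblast, endothelial and macrophage genes. It gave 92, 102 and 115 members and a difference of 0.534 points for DMD. The candidates left out by these limits were 23, 24 and 44. They were deeper, with medians of 1666, 2121.5 and 2007 UMIs, and 13, 12 and 22 of them had a CD3 UMI. Their Skap1 level was 1485, 1933 and 1293 CPM, against 3644, 4557 and 4817 CPM in members.

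**Figure D2:**
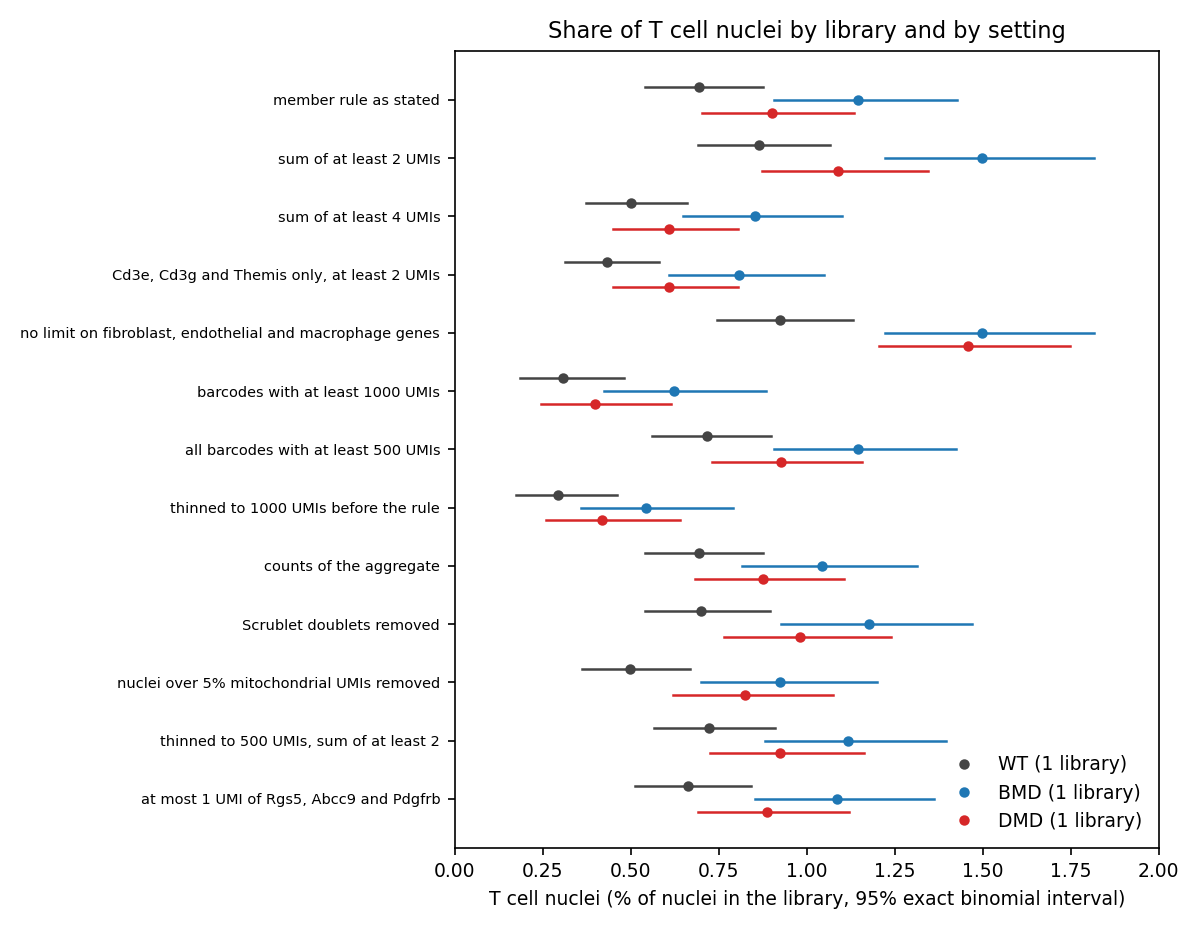
Share of T cell nuclei in each library (x axis, percent of nuclei) under the rule as stated and under 12 other settings, with points for the share and lines for the 95% exact binomial interval. BMD (blue) lay above WT (grey) in every setting, and DMD (red) lay between WT and BMD in each, close to BMD when the limits on other cell types were dropped.

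NK-like nuclei, chosen by an NK sum of at least 3 UMIs and above the T sum, showed another order. They numbered 169, 75 and 99, or 1.70%, 1.10% and 1.25% of nuclei, with a difference from WT of -0.595 points for BMD (-0.946 to -0.231) and -0.441 for DMD (-0.794 to -0.083). The ratio of T cell to NK-like nuclei was 0.408, 1.04 and 0.717. T cell nuclei were 29.0% (23.3 to 35.2%) of the 2 classes together for WT, 51.0% (42.8 to 59.1%) for BMD and 41.8% (34.3 to 49.6%) for DMD. Both classes share the requirement on the difference of the T and NK sums, so the 2 counts are not independent.

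Gene levels in the members were compared for the 901 genes with at least 50 UMIs in all, on the log2 of CPM plus 10. In BMD, 28 genes (3.11%) were at least 2-fold higher than in WT and 27 (3%) at least 2-fold lower, with a median over all genes of 0.06. In DMD, 38 genes (4.22%) were at least 2-fold higher and 35 (3.88%) at least 2-fold lower, with a median of 0.07. Of the 901 genes, 502 were higher than in WT in BMD and 499 in DMD. Both comparisons use the same WT library. Such counts carry no replicate check, and they went down to 0 and 6 in BMD and to 5 and 6 in DMD among the 272 genes with at least 100 UMIs.

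The list of the T cell receptor complex and its proximal signalling holds the 4 genes of the rule, which bounds their sum from below. Of 29 genes in this list, 19 had at least 50 UMIs, of which 1 was past 2-fold in BMD, where it was higher (3.11% of all genes were), and 0 in DMD (4.22% higher and 3.88% lower). The medians were 0.18 and -0.07 with the genes of the rule and 0.29 and 0.10 over the 15 other genes, against 0.06 and 0.07 over all genes. Summed over the 25 genes of the list outside the rule, the level was 18606, 21359 and 20648 CPM, or 0.20 (0.09 to 0.31) for BMD and 0.15 (0.04 to 0.27) for DMD over WT on the log2 scale. The gene past 2-fold was Rasgrp1, an activator of RAS downstream of the receptor, with 185, 415 and 279 CPM. Cd3e stood at 369, 415 and 352 CPM and Cd3g at 504, 493 and 294 CPM, with log2 ratios of -0.07 (-0.96 to 0.84) and -0.78 (-1.67 to 0.09) for DMD over WT. Themis stood at 1780, 1558 and 1924 CPM and Camk4 at 3174, 2844 and 2922 CPM, levels that the rule bounds from below. Skap1 was higher in both mutants, with log2 ratios of 0.32 for BMD (0.07 to 0.57) and 0.40 for DMD (0.15 to 0.66). When every nucleus was thinned to 500 UMIs before the rule, with a sum of at least 2, these ratios were 0.05 and -0.05.

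The list of naive and central memory genes summed to a higher level in DMD. Of its 10 genes, 7 had at least 50 UMIs. All 7 were higher in DMD than in WT, as were 499 of all 901 genes, and 2 of the 7 were past 2-fold (4.22% of all genes), with a median of 0.41, while in BMD 2 were higher and 5 lower (502 and 399 of all genes), with 0 past 2-fold (3.11% of all genes higher and 3% lower) and a median of -0.07. Summed over the 10 genes, the level was 6230, 5869 and 9032 CPM. The DMD level was thus above WT by 0.54 on the log2 scale (0.35 to 0.73), whereas BMD and WT differed by -0.09 (-0.29 to 0.12).

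Bach2, a repressor that restrains effector differentiation, had 40, 49 and 105 UMIs, or 672, 636 and 1542 CPM, a log2 ratio of 1.2 (0.66 to 1.76) for DMD over WT. Satb1, a chromatin organiser of the T lineage, had 50, 73 and 114 UMIs, or 840, 948 and 1674 CPM, a log2 ratio of 1.0 (0.50 to 1.51). In both genes the DMD library stood highest, while the BMD over WT intervals included 0 on the log2 scale. The UMIs were spread over nuclei, with at most 11 of the 105 Bach2 UMIs and 10 of the 114 Satb1 UMIs of DMD in 1 nucleus.

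The other members of the list pointed the same way with smaller differences. Lef1 stood at 1327, 1117 and 1615 CPM, and Tcf7 at 537, 312 and 720 CPM. Il7r, the interleukin-7 receptor alpha chain, stood at 336, 325 and 441 CPM, and Foxp1, a factor of T cell quiescence, at 2284, 2181 and 2438 CPM. The DMD over WT intervals of these genes all included 0 on the log2 scale (Lef1 0.28, -0.15 to 0.72, and Tcf7 0.42, -0.25 to 1.11). Of the 3 genes with fewer UMIs, Ccr7, the chemokine receptor for entry into lymph nodes, had 0, 4 and 6 UMIs, and S1pr1 had 4, 7 and 8. In NK-like nuclei Bach2 stood at 426, 347 and 268 CPM and Satb1 at 184, 75.9 and 268 CPM in WT, BMD and DMD.

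**Figure D3:**
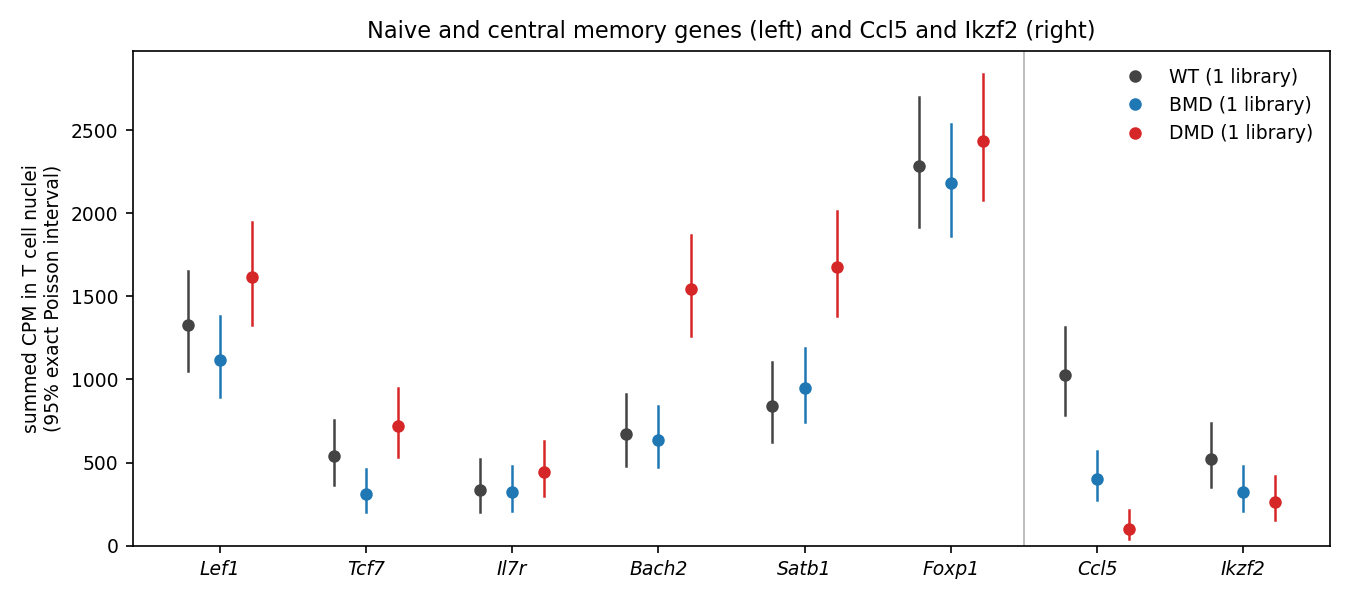
Summed CPM (y axis) of 6 naive and central memory genes with at least 50 UMIs, and right of the line of Ccl5 and Ikzf2, in the T cell nuclei of each library (WT grey, BMD blue, DMD red), with 95% exact Poisson intervals for counting error. DMD was highest in all 6, clearest for Bach2 and Satb1, and lowest for Ccl5 at 103 CPM.

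The list was also examined per nucleus at equal depth. With each member thinned at random to 500 UMIs, a UMI of Lef1 or Tcf7 was found in 36.2% of WT members (25 of 69, 25 to 48.7%), 26.9% of BMD members (21 of 78, 17.5 to 38.2%) and 54.9% of DMD members (39 of 71, 42.7 to 66.8%). Over 20 further draws of the thinning, the share was 31.9 to 40.6% in WT, 26.9 to 34.6% in BMD and 52.1 to 63.4% in DMD, so that DMD lay above the others in each draw. With all UMIs the shares were 44.9%, 39.7% and 69.0%. The difference depended on the number of UMIs asked for. At least 2 UMIs of Lef1 or Tcf7 at equal depth were found in 29.0% (18.7 to 41.2%), 20.5% (12.2 to 31.2%) and 31% (20.5 to 43.1%) of members, so that DMD and WT were close in this 1 draw. With all UMIs, at least 2 were found in 31.9%, 25.6% and 54.9% of members. This pair of genes was chosen after the values were seen. Lef1 alone was found in 27.5%, 24.4% and 45.1% of members, and in 0.0921%, 0.218% and 0.185% of fibroblast nuclei, which should lack it and whose median depth was 1300, 1757.5 and 1436 UMIs before thinning. Satb1 was found in 26.1%, 30.8% and 45.1% of members and in 3.10%, 1.46% and 1.94% of fibroblast nuclei. Tcf7 was found in 17.4%, 10.3% and 23.9% of members and Il7r in 13%, 14.1% and 19.7%. Foxp1 was found in 60.9%, 47.4% and 54.9%, so that its share in DMD lay below that in WT. Bach2 was found in 26.1%, 19.2% and 38.0% of members, but also in 19.2%, 18.5% and 17.8% of endothelial nuclei, so that the intervals in WT (16.3 to 38.1%) and BMD members (11.2 to 29.7%) included the share in that class. The size of the difference depended on how members were chosen. When every nucleus was thinned to 500 UMIs before the rule, with a sum of at least 2, the list differed by 0.23 (-0.01 to 0.47) for DMD over WT, and without nuclei over 5% mitochondrial UMIs by 0.33 (0.11 to 0.55).

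Promoter sequences of 2 genes of this list are shown, because its 7 measured genes lay on the same side of WT in DMD. They come from RefSeq on GRCr8, run from 250 bases before to 50 after the gene start, and were available for 7 of the 10 genes. Capitals mark matches on either strand to TGTGGT (RUNX family), GGAAGT (ETS family) or CTTTGA (TCF/LEF family), none of which overlapped. The first lies at chr10:36954230-36954529 on the minus strand and the second at chr2:60204868-60205167 on the minus strand.
Tcf7: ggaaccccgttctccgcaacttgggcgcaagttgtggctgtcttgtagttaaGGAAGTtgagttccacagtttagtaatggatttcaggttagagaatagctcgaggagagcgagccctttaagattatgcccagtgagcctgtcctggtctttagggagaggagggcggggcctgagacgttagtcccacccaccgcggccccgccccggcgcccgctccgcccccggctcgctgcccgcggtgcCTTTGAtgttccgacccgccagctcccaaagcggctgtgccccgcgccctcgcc
Il7r: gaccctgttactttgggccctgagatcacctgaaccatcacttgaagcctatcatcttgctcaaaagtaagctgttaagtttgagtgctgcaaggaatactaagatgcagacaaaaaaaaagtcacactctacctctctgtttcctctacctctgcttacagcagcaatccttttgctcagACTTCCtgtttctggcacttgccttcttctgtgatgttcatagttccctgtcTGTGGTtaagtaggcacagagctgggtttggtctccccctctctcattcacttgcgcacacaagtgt
Tcf7 held 1 ETS and 1 TCF/LEF match, and Il7r held 1 RUNX and 1 ETS match. Among the 7 promoters, 1 held the RUNX letters, 3 the ETS letters and 1 the TCF/LEF letters. Of all 33469 promoters of this length, 17.3%, 22.6% and 16.1% held them. A match is a description and not a binding site.

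Cytotoxic and effector genes summed to a lower level in the mutants, and Ccl5 was the most abundant of them in WT. Summed over the 17 genes of this list in the files, the level was 2586, 1688 and 940 CPM, from 154, 130 and 64 UMIs, or -0.62 (-0.96 to -0.27) for BMD and -1.46 (-1.90 to -1.03) for DMD over WT on the log2 scale. Klrd1, Nkg7 and Tbx21 of this list are NK genes that the rule limits, and without them the ratios were -0.61 (-1.004 to -0.22) and -1.58 (-2.10 to -1.09). Without Ccl5 they were -0.28 (-0.70 to 0.14) and -0.90 (-1.40 to -0.41). Of these genes, only Ccl5 reached 50 UMIs, and it gave 61 of the 154, 31 of the 130 and 7 of the 64. The interval for BMD over the whole list also included 0 in 5 other settings, namely without the limits on other cell types (-0.57 to 0.08), without nuclei over 5% mitochondrial UMIs (-0.91 to 0.03), in barcodes with at least 1000 UMIs (-1.03 to 0.18), and thinned to 1000 (-1.63 to 0.02) or to 500 UMIs (-0.71 to 0.20). Per nucleus, a UMI of the list was found in 53.6%, 56.4% and 46.5% of members with all UMIs. At 500 UMIs it was found in 44.9% (32.9 to 57.4%), 41.0% (30.0 to 52.7%) and 31% (20.5 to 43.1%), shares whose intervals overlapped. Ccl5, a chemokine of memory and effector T cells, had 61 UMIs in 18 WT nuclei, 31 in 16 BMD nuclei and 7 in 4 DMD nuclei, or 1024, 403 and 103 CPM. The log2 ratio was -1.35 (-2.02 to -0.70) for BMD and -3.32 (-4.69 to -2.19) for DMD over WT. One WT nucleus held 16 of the 61 UMIs. In the free RNA of barcodes with at most 50 UMIs, Ccl5 stood at 186, 63.1 and 135 CPM, so that the DMD members did not exceed it. NK-like nuclei, which were set by other genes, had Ccl5 at 1964, 998 and 1442 CPM.

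Most WT and BMD nuclei with Ccl5 carried no Lef1 or Tcf7 UMI. Of the 38 members with a Ccl5 UMI, 29 had a CD3 UMI, 26 had a UMI of an NK gene of the rule, and 6 had a UMI of Lef1 or Tcf7. The 6 were 4 of 18 in WT, 0 of 16 in BMD and 2 of 4 in DMD. Among all 218 members, 116 (53.2%) had a CD3 UMI. Lef1 or Tcf7 was found in 31 of 69 WT, 31 of 78 BMD and 49 of 71 DMD members. A UMI of any of the 8 NK genes in the files was found in 27, 29 and 18 members. Whether NK nuclei that met the rule take part in the Ccl5 level was not tested. Other effector genes were sparse. Gzmm, a granzyme, had 9, 8 and 4 UMIs, Gzmk 5, 2 and 3, Prf1, which encodes perforin, 6, 6 and 4, and Ctsw 9, 14 and 3. Tbx21, the factor T-bet that the rule limits, had 12, 15 and 6. The intervals of the DMD over WT ratio included 0 on the log2 scale for each of these 5 genes.

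The co-receptor genes were thinly detected. With all UMIs, 7 WT, 8 BMD and 9 DMD members had Cd4 without Cd8a or Cd8b, 14, 16 and 9 had Cd8a or Cd8b without Cd4, and none had both. At 500 UMIs per nucleus, Cd8 nuclei were 14.5% of WT members (7.17 to 25%), 10.3% of BMD members (4.53 to 19.2%) and 8.45% of DMD members (3.16 to 17.5%). BMD minus WT was -4.24 points (-15.6 to 6.58) and DMD minus WT -6.04 points (-17.2 to 4.84), so that both intervals included 0. Over 20 further draws the share was 11.6 to 17.4% in WT, 8.97 to 15.4% in BMD and 4.23 to 11.3% in DMD. Cd4 nuclei were 5.80%, 3.85% and 8.45%. Within each library, Ccl5 was at 0 in the Cd4 nuclei and at 3245, 435 and 122 CPM in the Cd8 nuclei, the last from 1 UMI. Tox, a nuclear factor of T cell development and exhaustion, was higher in the Cd4 than the Cd8 nuclei in 3 of 3 libraries. It stood at 2951 against 850 CPM in WT, 1891 against 994 CPM in BMD, and 809 against 486 CPM in DMD. These came from 18 against 11, 15 against 16 and 9 against 4 UMIs. Other compared genes also kept 1 direction. Skap1, Tcf7 and Trat1 were higher in the Cd4 nuclei of each library, and Cd226 and Klrd1 in the Cd8 nuclei. Most members, 48, 54 and 53, had no co-receptor UMI.

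Regulatory T cell genes summed to 1209, 948 and 646 CPM over 10 genes. Ikzf2, which encodes Helios, was the one gene with at least 50 UMIs and stood at 521, 325 and 264 CPM, a log2 ratio of -0.98 (-1.90 to -0.09) for DMD over WT. Its UMIs lay in 10, 9 and 7 nuclei, and the DMD direction turned to 0.58 when members were chosen without Camk4, where the list turned to 0.11, and to 0.93 in barcodes with at least 1000 UMIs, from -0.95 on CPM plus 10. Genes of gamma delta and innate-like T cells summed to 101, 208 and 397 CPM, or 6, 16 and 27 UMIs. Of the 27 in DMD, 17 were Zbtb16, which stood higher in all other nuclei (806, 906 and 1541 CPM) than in members (67.2, 64.9 and 250 CPM). Cell division genes gave 23, 46 and 13 UMIs over 16 genes, with Top2a at 3, 10 and 1.

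The remaining lists differed in direction. For BMD and DMD in turn, the median log2 ratio was -0.11 and 0.09 for T cell transcription factors, 0.01 and -0.28 for costimulation and checkpoint genes, -0.20 and -0.24 for residence and homing genes, -0.06 and 0.38 for 6 cytokine receptor and signalling genes, and -0.07 and -0.28 for dystrophin-associated genes. Of 25 T cell transcription factors, 15 had at least 50 UMIs, of which 0 were past 2-fold in BMD and 2 higher in DMD, Bach2 and Zeb1, against 4.22% of all genes. Zeb1 stood at 202, 247 and 441 CPM, below its level in all other nuclei (371, 375 and 444 CPM), and its DMD ratio turned to -0.15 without the limits on other cell types. Ets1, a factor of lymphocyte development, stood at 2788, 2103 and 2173 CPM, a log2 ratio of -0.41 (-0.73 to -0.09) for BMD that turned to 0.40 in barcodes with at least 1000 UMIs. Gata3, the factor of type 2 helper cells, had only 3, 18 and 7 UMIs. Of the costimulation and checkpoint genes, Cd226, an activating receptor, and Tox had at least 50 UMIs, at 688, 636 and 602 CPM and at 1377, 1506 and 1057 CPM. Of the residence and homing genes, Itga4, the integrin alpha 4 chain that binds VCAM-1, stood at 1209, 1117 and 1498 CPM, and Itgal, the alpha chain of LFA-1, at 336, 273 and 191 CPM. Summed over all 22 cytokine receptor and signalling genes, DMD over WT was -0.04 (-0.27 to 0.20), on the other side of 0 from the median of the 6 with at least 50 UMIs. Of these 6, 1 was past 2-fold higher in DMD, against 4.22% of all genes. This was Il6r, the interleukin-6 receptor, with 235, 286 and 499 CPM, while its level in macrophage nuclei was 766, 679 and 809 CPM. Immediate early and activation genes, of which Nfkb1 alone had at least 50 UMIs, summed to 991, 1182 and 1072 CPM over 17 genes. The genes of cytokines and chemokines made by T cells gave 77, 47 and 16 UMIs, of which Ccl5 was the most, and 10 of 17 were at 0 in every library.

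**Figure D4:**
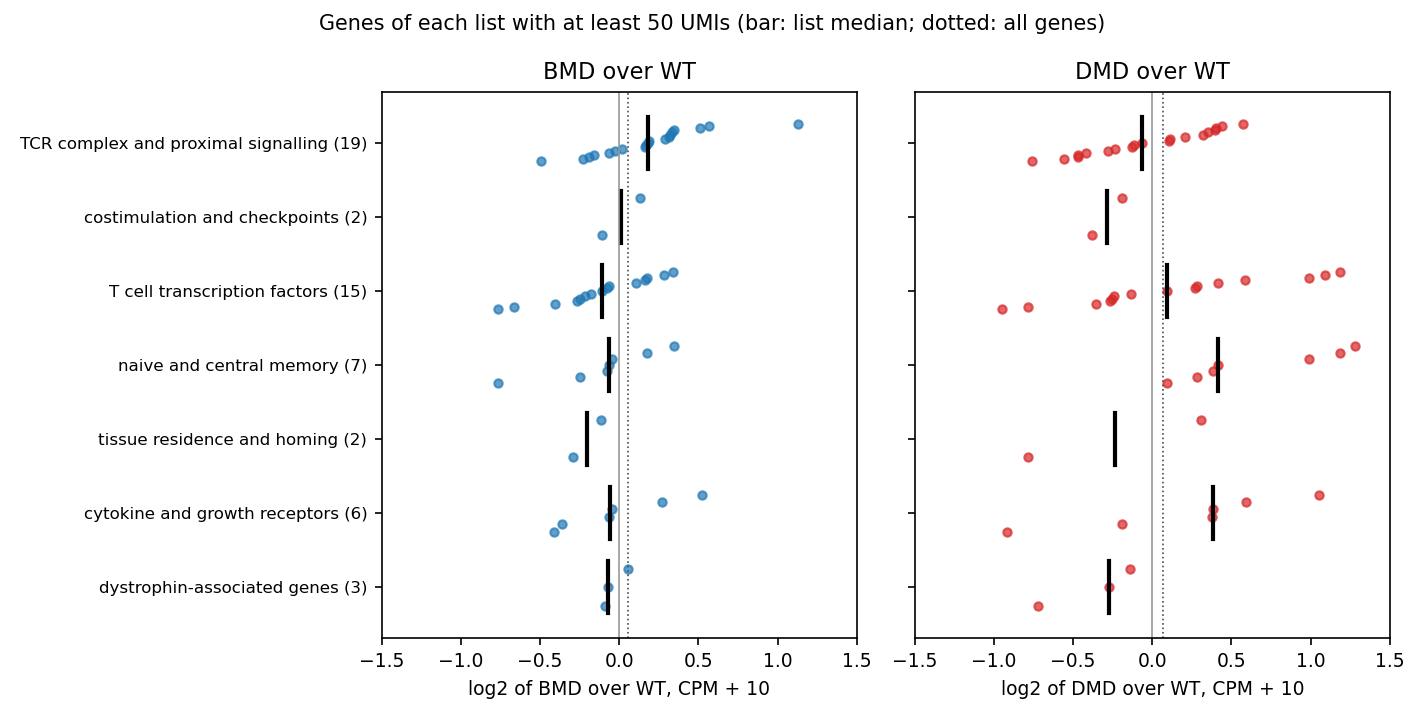
Log2 ratio of CPM plus 10 (x axis) of BMD over WT (left) and DMD over WT (right) for each gene with at least 50 UMIs (points) in the 7 lists with 2 or more such genes (number in brackets), with bars for the list medians and a dotted line for the median of all 901 genes. All 7 naive and central memory genes lay above 0 in DMD, as did 499 of all 901 genes, while the 19 genes of the receptor list lay on both sides in each comparison.

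Dystrophin transcripts were scarce in the members, and no difference between genotypes was detectable at this depth. Dmd stood at 873, 909 and 720 CPM, from 52, 70 and 49 UMIs, against 7641, 10584 and 6977 CPM over all nuclei and 8796, 7133 and 3884 CPM in free RNA. The log2 ratio was 0.06 (-0.48 to 0.60) for BMD and -0.28 (-0.87 to 0.31) for DMD over WT. At 500 UMIs, Dmd was found in 26.1%, 38.5% and 31% of members and in 26.5%, 35.3% and 30.5% of fibroblast nuclei. The counts do not say whether the deleted exons were present, since they are per gene. Utrn, the dystrophin paralogue utrophin, took a larger share of UMIs in members than over all nuclei, at 1814, 1727 and 1645 CPM against 1204, 1148 and 1230 CPM, and stood at 1742, 1670 and 1957 CPM in NK-like nuclei. Sntb1, the beta-1 syntrophin, stood at 1578, 1480 and 955 CPM, a log2 ratio of -0.73 (-1.20 to -0.25) for DMD over WT, and at 1513, 1171 and 783 CPM in NK-like nuclei.

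Genes were also named by size of ratio alone, among 364 genes whose mean level in members was 2-fold or more above that of the remaining nuclei. Being chosen as extremes, their ratios are a description. The limit was on the mean over libraries, so that a gene could pass through the libraries where it was high. In WT, Atm stood at 118 CPM in members against 139 CPM in all other nuclei, Rfx3 at 202 against 178 CPM and Kif2a at 134 against 106 CPM. In BMD, Irf2 stood at 130 against 117 CPM. In DMD, Rsbn1l stood at 117 against 128 CPM, Actb at 264 against 234 CPM and Mt-nd4l at 147 against 128 CPM. The highest in both mutants was Atm, the DNA damage kinase, with 118, 325 and 441 CPM, or 7, 25 and 30 UMIs. Rfx3, a regulatory factor X family member, stood at 202, 480 and 441 CPM, and Itpr2, a calcium release channel, at 218, 441 and 455 CPM. AABR07018078.1, which has no other symbol in the files, stood at 168, 688 and 352 CPM, and at 420, 738 and 484 CPM in NK-like nuclei. Its DMD over WT interval included 0 on the log2 scale (-0.05 to 2.30). The remaining genes of this direction were Ago4, Plekha2, Nt5dc1, Tcf20, Tmem156 and Gtdc1, each with fewer than 20 UMIs in WT. For each of them the interval of at least 1 of the comparisons with WT included 0 on the log2 scale. For Nt5dc1 and Gtdc1 both intervals did. The DMD ratio of Tcf20 turned to -0.69 when nuclei were thinned to 1000 UMIs before the rule.

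Among the genes lowest in both mutants, Coro1a, the leukocyte coronin, stood at 588, 273 and 206 CPM. Arpc1b, an Arp2/3 complex subunit, stood at 470, 143 and 162 CPM, and Actb, beta-actin, at 655, 338 and 264 CPM. The ribosomal protein gene Rpl37a stood at 940, 273 and 411 CPM. In all other nuclei it was also lowest in BMD, at 193, 80.1 and 167 CPM. In NK-like nuclei, Coro1a stood at 464, 217 and 258 CPM and Actb at 502, 260 and 350 CPM. Rpl37a stood there at 400, 163 and 268 CPM, so that these genes were below WT in both mutants there too. Arpc1b, at 191, 184 and 196 CPM in NK-like nuclei, differed little. Irf2, an interferon regulatory factor, stood at 470, 130 and 220 CPM, and at 203, 195 and 227 CPM in NK-like nuclei. The level of Rplp1 was lowest in BMD, at 571, 169 and 558 CPM. Rplp1 was lowest in BMD outside the members too, at 150, 73.4 and 142 CPM in all other nuclei and 677, 312 and 631 CPM in free RNA. The share of mitochondrial UMIs was also highest in WT. Without the nuclei over 5%, the log2 ratio of Actb for BMD turned to 0.14 and that of Coro1a went from -1.08 to -0.17.

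Among the genes lowest in DMD was Slfn4, a Schlafen family gene of immune cells, with 81 UMIs in 26 WT nuclei (1360 CPM), 182 in 42 BMD nuclei (2363 CPM) and 32 in 15 DMD nuclei (470 CPM). The mutants thus lay on opposite sides of WT, with log2 ratios of 0.80 (0.41 to 1.19) for BMD and -1.53 (-2.17 to -0.93) for DMD. In macrophage nuclei Slfn4 stood at 688, 1755 and 648 CPM and in NK-like nuclei at 515, 1345 and 906 CPM, so that BMD was highest in these classes too. St8sia4, a polysialyltransferase, stood at 672, 519 and 220 CPM and Rsbn1l at 470, 325 and 117 CPM, and Mt-nd4l, a mitochondrial gene, at 487, 428 and 147 CPM. Highest in DMD were, beside Atm and Tmem156, also Kif2a, a kinesin, at 134, 208 and 411 CPM, and Ncoa7 at 151, 247 and 397 CPM. For Kif2a, 11 of the 28 DMD UMIs lay in 1 nucleus, and its DMD ratio turned to -0.035 when members were chosen without Camk4 and to -0.18 when nuclei were thinned to 500 UMIs before the rule. Highest in BMD was also Map3k14, the NF-kappaB inducing kinase, at 151, 377 and 250 CPM.

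**Figure D5:**
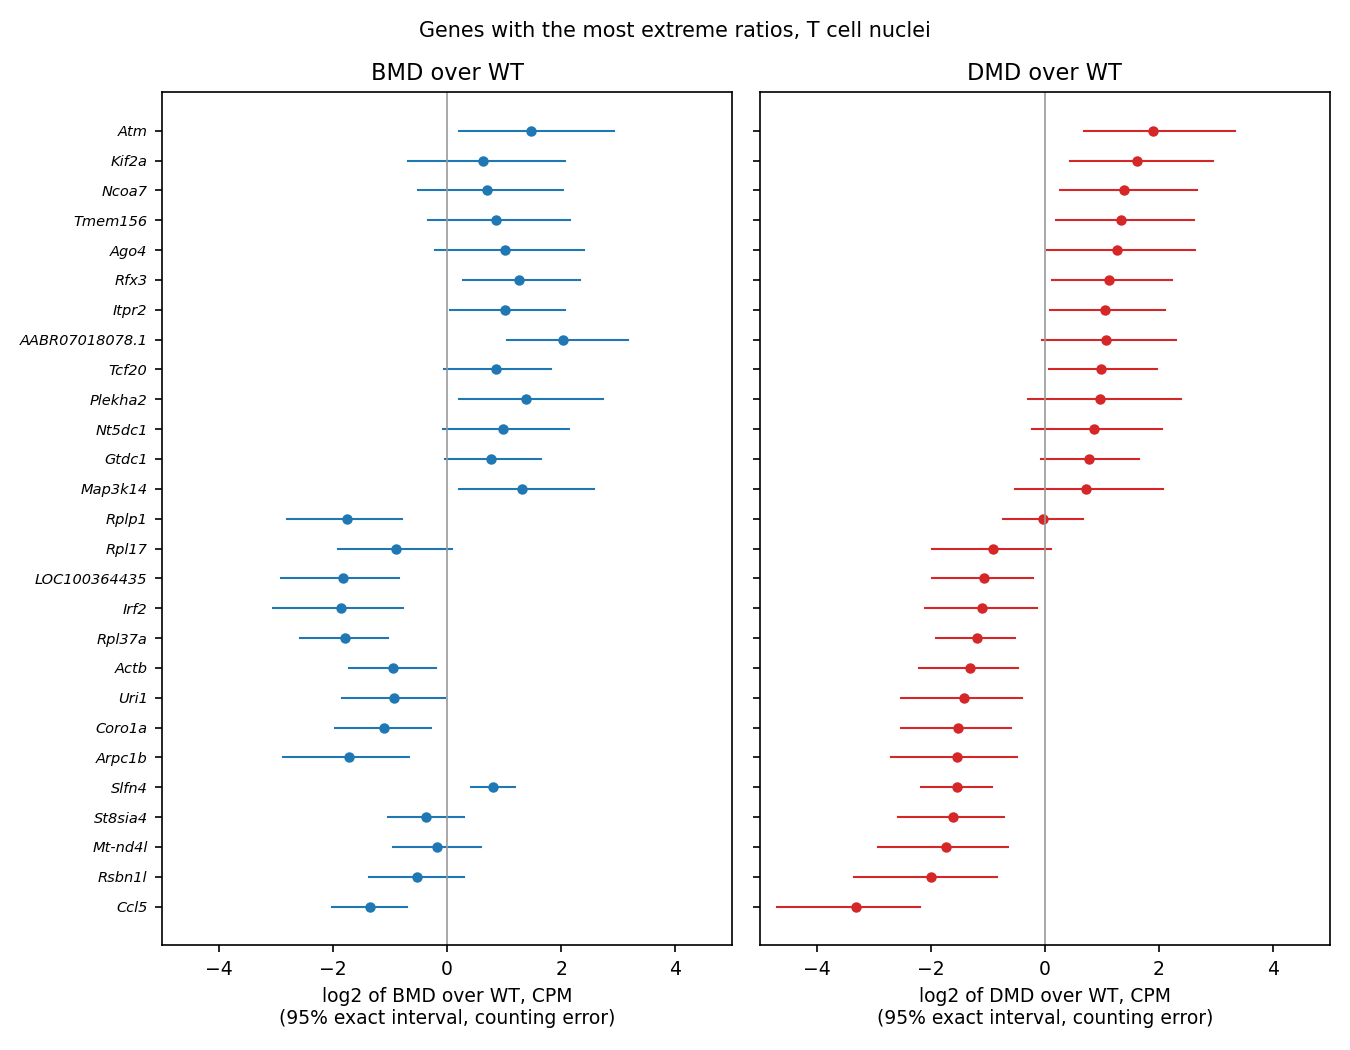
Log2 ratio of plain CPM (x axis) of BMD over WT (left) and DMD over WT (right) for genes chosen by size of ratio, ordered by DMD over WT, with 95% exact intervals for counting error. Ccl5 lay lowest in DMD (-3.32), and Slfn4 lay on opposite sides of 0 in the 2 comparisons.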

How the data were processed

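Nuclei of 3 libraries, 1 per genotype, were read from the raw UMI count matrices that the authors deposited, which hold all barcodes. The labels name the 10x Genomics 3′ kit, and the submitters' processing notes name Cell Ranger and rn6, while the study's results text names a 5′ technology, and which was used was not settled here. Counting of introns and strand is not given in the sources used here. WT counts came from the WT barcodes of an aggregate whose header names cellranger 6.0.1, against Cell Ranger 4 for BMD and DMD, so that a difference in software cannot be told apart from genotype. The aggregate held 76.1% of the UMIs of the BMD file and 92.9% of those of the DMD file. The share it holds for WT is not known here, and its counts for all 3 were an alternative. Barcodes were ranked by UMIs, and the top 9964, 6810 and 7890, the numbers of nuclei given in the methods, were kept. The libraries held 17160871, 14971887 and 13766688 UMIs in nuclei.

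The members and the lists were chosen with earlier results of these data known. UMIs were summed per library and scaled to CPM. Intervals are 95%, exact Poisson for levels, conditional exact binomial for ratios, Clopper-Pearson for shares and Newcombe for differences (scipy 1.17.1). Ratios with an interval use plain CPM, and 2-fold counts, medians and values under other settings use CPM plus 10. Named genes were those of the rule, list genes with at least 50 UMIs, the 20 leading genes, Dmd, and, among genes in at least 20 members and at least 2 times above all other nuclei, the 10 highest and 10 lowest by the ratio nearer 0 of both comparisons and the 5 highest and 5 lowest in each. Genes with fewer UMIs were named after their values were seen. Doublets were kept; Scrublet (scanpy 1.11.5) called 5, 2 and 2 members, whose removal was an alternative, as were TMM factors (edgeR 4.0.16). The scripts' statistics were tested on simulated data. Values of some single genes are not reported here.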

Additional observations from a re-analysis of the deposited data

How the results depend on the processing

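The share of T cell nuclei stood above WT in both mutants under each of 12 other settings, by 0.251 to 0.635 percentage points in BMD and 0.0909 to 0.534 in DMD, the highest DMD value being the one without limits on fibroblast, endothelial and macrophage genes. The naive and central memory list stood above WT in DMD in each of 16 settings (0.23 to 0.98 on the log2 scale), and the cytotoxic list below WT in both mutants in each of 18 (-0.80 to -0.24 in BMD, -1.68 to -0.90 in DMD). The Cd8 difference was -11.4 to 6.07 points in BMD and -12.6 to -0.526 in DMD over 13 settings. Across the other gene values, 2581 of 2720 stayed within the counting interval of the rule as stated, 127 left it, and 12 turned. A value was counted as turned only where that interval excluded 0. Changes of sign in genes whose interval included 0 are not among the 12. The cause of the values below was not tested, beyond the fewer nuclei or genes that a setting leaves.

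Counts of genes at least 2-fold higher or lower are given with the number of genes tested, which was 901 under the rule as stated. With at least 25 UMIs (2097 genes), 144 genes were higher and 112 lower in BMD, and 152 and 135 in DMD, and with at least 100 UMIs (272) these were 0 and 6, and 5 and 6. With a sum of at least 4 UMIs (602), 14 genes were lower in BMD and 17 in DMD, and with Cd3e, Cd3g and Themis alone (534) likewise 14 and 17. Without the limits on other cell types (2175), 58 (2.67%) were higher and 82 (3.77%) lower in BMD. In barcodes with at least 1000 UMIs (236), 17 (7.2%) were higher and 7 (2.97%) lower in BMD, and 27 (11.4%) higher and 16 (6.78%) lower in DMD. Thinned to 1000 UMIs (111), 7 were higher and 4 lower in BMD, and 8 and 10 in DMD. Thinned to 500 UMIs with a sum of at least 2 (336), a setting added after seeing the data, as were the limit on pericyte genes and lists without Ccl5 or the genes of the rule, 8 and 6 were so in BMD and 5 and 10 in DMD. The counts of the aggregate (745) gave 23 higher in DMD, free RNA subtraction (901) 55 lower in DMD, and removal of nuclei over 5% mitochondrial UMIs (546) 7 lower in BMD, with 20 higher and 19 lower in DMD.

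The naive and central memory list in DMD was 0.98 in barcodes with at least 1000 UMIs, 0.81 thinned to 1000, 0.33 without nuclei over 5% mitochondrial UMIs and 0.23 thinned to 500, and in BMD it was 0.14 without the limits and 0.23 thinned to 1000. The cytotoxic list was -0.24 in BMD and -0.98 in DMD without the limits, -0.99 in DMD thinned to 1000, -0.90 in DMD without Ccl5, and -0.25 in BMD thinned to 500. Directions whose interval excluded 0 under the rule as stated turned as follows. Without Camk4, DMD over WT was 0.58 for Ikzf2, -0.035 for Kif2a and 0.11 for the regulatory list. Without the limits, Zeb1 was -0.15 in DMD and the transcription factor list 0.045 in BMD. With at least 1000 UMIs, Ets1 was 0.40 in BMD and 0.20 in DMD, Ikzf2 0.93 in DMD and the transcription factor list 0.17 in BMD. Thinned to 1000, Ets1 was 0.39 and that list 0.11 in BMD, and Nfatc3 was -0.12 and Tcf20 -0.69 in DMD. Thinned to 500, DMD gave -0.18 for Kif2a, -0.049 for Skap1 and -0.041 for the transcription factor list. Actb was 0.14 in BMD without nuclei over 5% mitochondrial UMIs. No paired analysis was possible because each genotype has 1 library.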
